A study of Mus musculus with 9 samples.

Results

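The Z-disc and intermediate filament genes are 9 genes whose proteins anchor and brace the contractile apparatus of heart muscle: Csrp3, Tcap, Ldb3, Actn2, Des, Pdlim5, Pdlim1, Cryab and Myoz2. Members were the probe sets whose single gene symbol in the platform annotation was one of these names. That rule found 9 probe sets for 7 of the 9 genes, out of 10833 probe sets for 8251 genes with a single symbol. Pdlim5 and Myoz2 had no probe set with that single symbol and were not analysed here. Csrp3, Tcap, Ldb3, Actn2 and Des had 1 probe set each, and Pdlim1 and Cryab had 2 each. Of the 9 probe sets, 8 passed the filter on low signals and were tested.

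RNA from both ventricles was hybridised to 1 array per mouse in 9 female mice aged 3 months. Every mouse overexpressed the receptor of insulin-like growth factor 1 (IGF1R) from a transgene. In the IGF1R group, 3 mice carried it alone. In the IGF1R-caPI3K group, 3 mice also carried a constitutively active p110 form of phosphoinositide 3-kinase (PI3K), the lipid kinase that relays the receptor's signal. In the IGF1R-dnPI3K group, 3 mice also carried a dominant negative p110 form, which blocks that signal. The promoter of each transgene was not given in the sources used here. The labels also name nontransgenic littermates and mice with only a PI3K transgene, which were not analysed here, and no comparison is with a normal heart. The comparisons ask whether activating or blocking PI3K on top of IGF1R overexpression, which the submitters connect with cardiac growth, came with other transcript levels of these genes.

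The Z-disc is the border between neighbouring sarcomeres, where the actin filaments of both sides are crosslinked by alpha-actinin and where titin ends. Many LIM and PDZ domain proteins sit on alpha-actinin, and some of them are thought to sense stretch and to take part in hypertrophic signalling. Desmin intermediate filaments wrap the Z-discs, link myofibrils to each other and to the cell border, and are kept from aggregating by the chaperone alpha B-crystallin. Mutations in CSRP3, TCAP, LDB3, ACTN2, DES and CRYAB are known in human cardiomyopathy or myopathy.

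The arrays were not alike in every respect that bears on the values below. Median signals of the 9 arrays lay between 161 and 197. The array of IGF1R-dnPI3K replicate 3 stood apart: its mean Pearson correlation with the other arrays across probe sets was 0.927, against 0.947 to 0.956 for the others. Its highest signal was 51164, against at most 29544 on the others. For the spiked control CreX, the 3' probe set was 1.05 to 1.26 times as bright as the 5' one in IGF1R mice and 1.74 to 1.89 times in both PI3K groups. For Gapdh this ratio was 0.747 to 0.818 in IGF1R mice and 0.843 to 0.943 in both PI3K groups. For Pcx it was 3.25 on the array of IGF1R-dnPI3K replicate 3 and 1.40 to 2.11 on the others. The part of these differences in the results was not tested. Markers of ventricular cardiomyocytes were present on all arrays, with 7 of 8 listed genes measured and none at or below 63.9, the highest signal of 9 Y-linked probe sets in these female mice. In tissue RNA, fewer cells of a type and less RNA per cell cannot be told apart.

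No member passed the test in any comparison. Differences were estimated on the log2 scale with limma, which fits all 9 arrays together, and p-values were adjusted by Benjamini-Hochberg over the 7898 probe sets that were tested (threshold 0.05). Between IGF1R-dnPI3K and IGF1R mice, 0 of 8 member probe sets passed in limma, where 13.5% of all probe sets did (5.7% higher and 7.8% lower). At an unadjusted p under 0.05 the count was 1 of 8, that of Cryab, against 32.2% of all probe sets. Between IGF1R-caPI3K and IGF1R mice, 0 of 8 passed, where 0.215% of all probe sets did (0.152% higher and 0.0633% lower), and 0 of 8 had an unadjusted p under 0.05, against 18.4% of all. Between IGF1R-caPI3K and IGF1R-dnPI3K mice, 0 of 8 passed, where 1.24% of all did (0.734% higher and 0.506% lower). There 3 of 8, those of Tcap, Pdlim1 and Cryab, had an unadjusted p under 0.05, against 15.4% of all. The first and second of these comparisons share the IGF1R mice, and the third shares mice with both. All 3 also share 1 estimate of the spread, to which the more variable IGF1R-dnPI3K mice contribute. With only the 2 groups compared in the fit, 1.8% of all probe sets passed between IGF1R-dnPI3K and IGF1R mice. Between IGF1R-caPI3K and IGF1R mice 9.7% passed in such a fit, so the order of these shares depended on the fit.

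The balance of higher and lower values depended on how the arrays were scaled to each other. On the deposited scale, 450 of all probe sets passed as higher and 616 as lower in IGF1R-dnPI3K than in IGF1R mice. After scaling to a common median these counts were 832 and 333, and the median log2 difference over all probe sets moved from -0.0944 to 0.075. For IGF1R-caPI3K against IGF1R mice the counts were 12 higher and 5 lower, and 45 and 33 after quantile normalization. Directions of members are therefore given with these scalings where they turned.

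**Figure D1:**
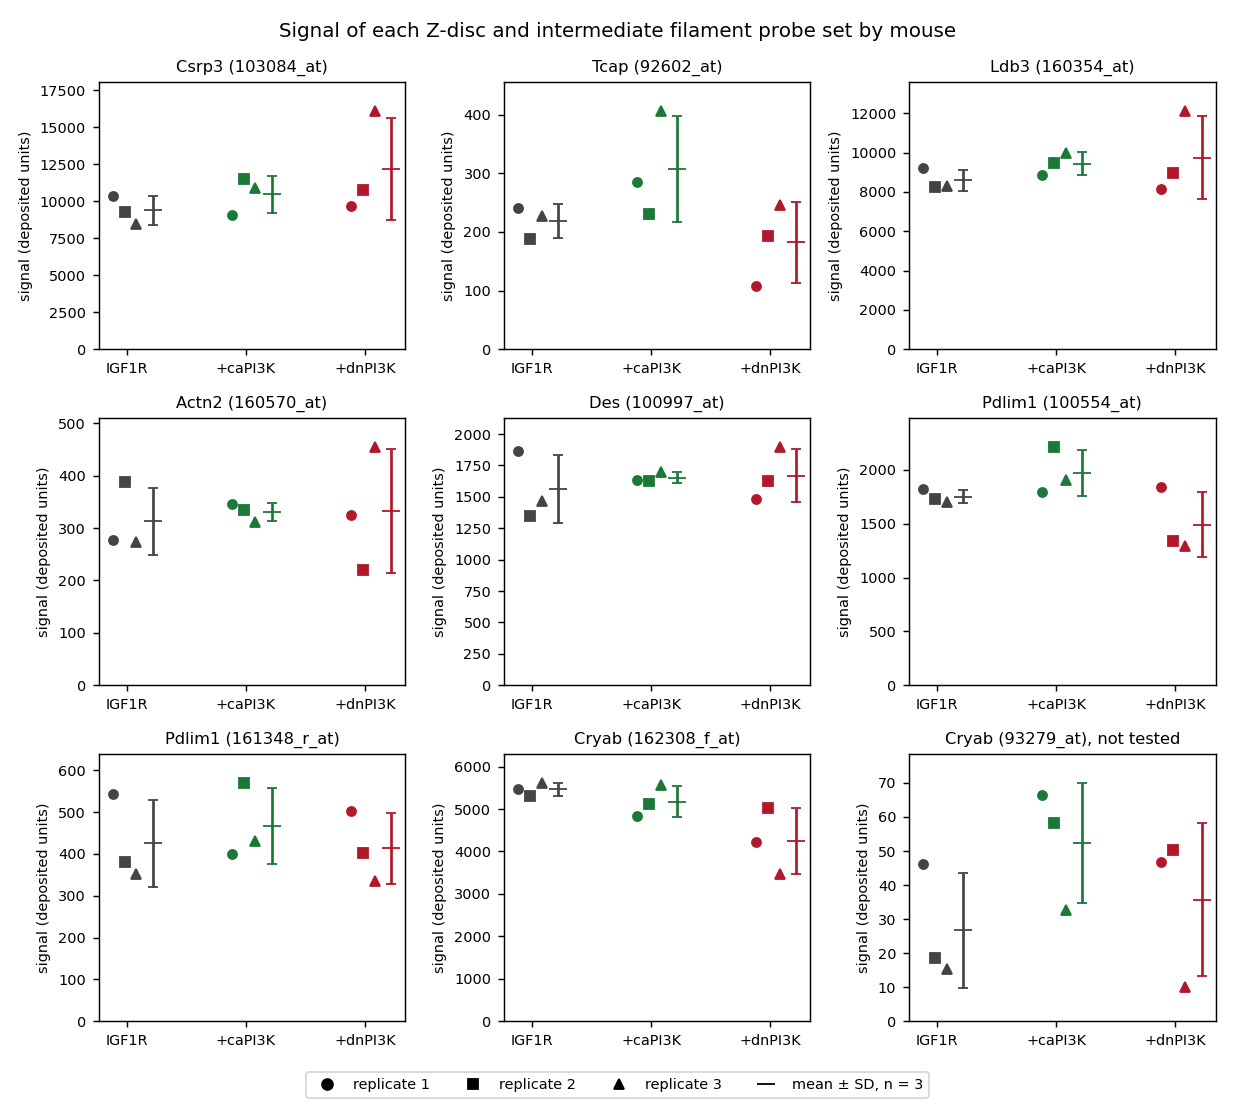
Deposited signal (linear scale, from 0) of each of the 9 member probe sets in the 9 mice, with +caPI3K and +dnPI3K standing for IGF1R-caPI3K and IGF1R-dnPI3K. Points are single arrays and bars are mean ± SD (n = 3). Only Cryab 162308_f_at has IGF1R-dnPI3K points that all lie below the IGF1R points, and the highest point of Csrp3, Ldb3, Actn2 and Des is that of IGF1R-dnPI3K replicate 3.

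Cryab encodes alpha B-crystallin, the small heat shock protein that chaperones desmin and titin. Its main probe set (162308_f_at) gave signals of 5465, 5319 and 5619 in the IGF1R mice and 4848, 5109 and 5571 in the IGF1R-caPI3K mice. In the IGF1R-dnPI3K mice the signals were 4221, 5035 and 3481. All 3 IGF1R-dnPI3K values lay below all 3 IGF1R values. This was the case for 1 of 8 tested member probe sets, and groups without overlap between IGF1R-dnPI3K and IGF1R mice occurred in 34.4% of all probe sets. Groups without overlap occurred in 0 of 8 members for IGF1R-caPI3K against IGF1R mice (32.9% of all) and in 0 of 8 between the PI3K groups (19.5% of all).

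The mean Cryab signal was 4246 ± 778 (SD, n = 3) in IGF1R-dnPI3K and 5468 ± 150 (SD, n = 3) in IGF1R mice. The log2 difference was -0.38 ± 0.13 (SE), with a 95% interval from -0.67 to -0.09 and an adjusted p of 0.0749 (limma), which missed the threshold. It was negative under all 21 alternative settings, from -0.51 to -0.21. It passed under 3 of them: quantile normalization (-0.51, adjusted p 0.0326), leaving out IGF1R-dnPI3K replicate 2 (-0.51, adjusted p 0.0318), and quantile normalization without IGF1R-dnPI3K replicate 3 (-0.34, adjusted p 0.0497). Under these 3 settings 12.7, 11.4 and 6.32% of all probe sets passed. Over all 21 alternatives the adjusted p ran from 0.0318 to 0.566. Without IGF1R-dnPI3K replicate 3, whose signal was the lowest, the difference on the deposited scale was -0.25 with an adjusted p of 0.151.

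The IGF1R-caPI3K and IGF1R mice overlapped in Cryab, with a log2 difference of -0.08 and an interval from -0.37 to 0.21. After scaling to a common median that difference was 0.02. Between IGF1R-caPI3K and IGF1R-dnPI3K mice it was 0.30 ± 0.13 (SE), with an unadjusted p of 0.0435 and an adjusted p of 0.308 (limma). The groups overlapped there, since IGF1R-dnPI3K replicate 2 at 5035 exceeded IGF1R-caPI3K replicate 1 at 4848. Suffix f marks a probe set that the array's maker flagged as possibly reading more than 1 transcript of a family, so the signal may not be from Cryab alone.

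The second Cryab probe set (93279_at) was dim and was not tested. Its signals were 46.1, 18.6 and 15.3 in IGF1R mice, 66.5, 58.1 and 32.7 in IGF1R-caPI3K mice and 46.9, 50.4 and 9.9 in IGF1R-dnPI3K mice. Only 1 of 9 arrays was above 63.9, the highest signal of a Y-linked probe set. It therefore gave no second reading of the gene.

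Desmin, encoded by Des, is the muscle intermediate filament protein that Cryab protects. Its signals were 1864, 1349 and 1465 in IGF1R mice and 1632, 1630 and 1701 in IGF1R-caPI3K mice. The IGF1R-dnPI3K mice gave 1486, 1624 and 1898. The groups overlapped in all 3 comparisons, and the IGF1R-caPI3K mice lay closest together, with an SD of 40.6. The log2 difference between IGF1R-dnPI3K and IGF1R mice was 0.10, with an interval from -0.20 to 0.41. In folds that interval runs from 0.868 to 1.33, so larger changes of the Des transcript lay outside it. The IGF1R-caPI3K mice differed from IGF1R mice by 0.10 (interval -0.21 to 0.41), and between the PI3K groups it was -0.006 (interval -0.32 to 0.30), a value whose sign turned with quantile normalization (0.0016).

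The ratio of Cryab to Des signal compares how both probe sets moved within an array. A scaling factor common to the array cancels in it, but a change in the shape of the array's signal distribution does not. The log2 ratio was 1.82 ± 0.24 (SD, n = 3) in IGF1R, 1.64 ± 0.07 (SD, n = 3) in IGF1R-caPI3K and 1.34 ± 0.41 (SD, n = 3) in IGF1R-dnPI3K mice. The single values in IGF1R-dnPI3K mice were 1.51, 1.63 and 0.88, so replicate 3 was far below the others. In IGF1R mice they were 1.55, 1.98 and 1.94. The difference of -0.49 between IGF1R-dnPI3K and IGF1R mice had a two-sided exact permutation p of 0.2. Such tests of 3 against 3 mice cannot go below 0.1, and 18 were run, for 6 pairs of genes in 3 comparisons.

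Csrp3 encodes muscle LIM protein, a Z-disc protein that binds telethonin and alpha-actinin and is thought to take part in stretch sensing. Its signals were 10381, 9287 and 8487 in IGF1R mice and 9085, 11505 and 10875 in IGF1R-caPI3K mice. In IGF1R-dnPI3K mice they were 9684, 10783 and 16113. The value of 16113 came from the array that stood apart, and the other two lay among those of the other groups. The mean was 9385 ± 951 (SD, n = 3) in IGF1R and 12190 ± 3439 (SD, n = 3) in IGF1R-dnPI3K mice.

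The Csrp3 log2 difference between IGF1R-dnPI3K and IGF1R mice was 0.35 ± 0.18 (SE), with an adjusted p of 0.206 (limma). It was 0.52 after scaling to a common median and -0.04 after quantile normalization, so its direction was not fixed by these data. Without IGF1R-dnPI3K replicate 3 it was 0.13. In IGF1R-caPI3K against IGF1R mice the difference was 0.16, with an interval from -0.23 to 0.55, and it was -0.03 after quantile normalization. Between the PI3K groups it was -0.19 (interval -0.58 to 0.20), and 0.01 after quantile normalization.

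Tcap encodes telethonin, which caps the ends of titin molecules at the Z-disc. Its signals were 242, 187 and 228 in IGF1R mice and 286, 230 and 406 in IGF1R-caPI3K mice. In IGF1R-dnPI3K mice they were 108, 193 and 246. The lowest value was IGF1R-dnPI3K replicate 1 and the highest IGF1R-caPI3K replicate 3, while the other 7 lay between 187 and 286. The PI3K groups overlapped, since IGF1R-dnPI3K replicate 3 exceeded IGF1R-caPI3K replicate 2.

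Tcap had the largest estimated difference of the members, 0.79 ± 0.30 (SE) on the log2 scale between IGF1R-caPI3K and IGF1R-dnPI3K mice. That is a fold of 1.73, with a 95% interval from 1.09 to 2.75. The unadjusted p was 0.0246 and the adjusted p 0.254 (limma). The difference was positive under all 21 alternatives, from 0.46 to 1.46, and passed under 0 of them. Without IGF1R-dnPI3K replicate 1 the Tcap difference between IGF1R-dnPI3K and IGF1R mice was 0.003, against -0.33 with it. Tcap differed by 0.46 between IGF1R-caPI3K and IGF1R mice, with an interval from -0.21 to 1.13.

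Csrp3 and Tcap lay on opposite sides of 0 in the comparisons that involve dominant negative PI3K, on the deposited scale. After quantile normalization they lay on the same side, at -0.04 and -0.17 against IGF1R mice and at 0.01 and 0.71 between the PI3K groups. Without IGF1R-dnPI3K replicate 1 they were 0.50 and 0.003 against IGF1R mice, and without replicate 3 they were 0.03 and 1.05 between the PI3K groups. The log2 ratio of Csrp3 to Tcap signal was 5.43, 5.63 and 5.22 in IGF1R mice and 4.99, 5.64 and 4.74 in IGF1R-caPI3K mice. In IGF1R-dnPI3K mice it was 6.48, 5.80 and 6.04, above all 6 other values. The difference from IGF1R mice was 0.68 and that of IGF1R-caPI3K from IGF1R-dnPI3K mice was -0.98. Both had an exact permutation p of 0.1, the smallest that the design allows, and 0.45 after adjustment over the 18 tests. Over the alternatives they ran from 0.12 to 1.22 and from -1.53 to -0.70, with no change of sign. Percentile 99 of the signals was 8180 to 8499 in IGF1R, 8998 to 9418 in IGF1R-caPI3K and 9754 to 11960 in IGF1R-dnPI3K mice. The part of this difference between arrays in the ratio was not tested. A value of this ratio has no meaning as a ratio of transcripts, since the probe sets differ in brightness, and only its differences between mice are read. The Tcap probe set was much the dimmer one, at percentiles 39.1 to 67.8 of the arrays.

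Actn2 encodes sarcomeric alpha-actinin, the crosslinker of actin filaments at the Z-disc. Its signals were 278, 387 and 274 in IGF1R mice and 346, 335 and 312 in IGF1R-caPI3K mice. In IGF1R-dnPI3K mice they were 324, 219 and 455. Both the lowest and the highest of the 9 values were IGF1R-dnPI3K mice, and the group means of 313 ± 64.5, 331 ± 17.7 and 333 ± 118 (SD, n = 3 each) lay close together. The lowest and highest values stood at percentiles 54.8 and 72.4 of their arrays. The log2 difference between IGF1R-dnPI3K and IGF1R mice was 0.05, with an interval from -0.50 to 0.59. It was -0.21 without IGF1R-dnPI3K replicate 3. Between the PI3K groups it was 0.05, with an interval from -0.49 to 0.60, and -0.01 after either other scaling. The IGF1R-caPI3K mice differed from IGF1R mice by 0.10 (interval -0.44 to 0.64).

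Ldb3 encodes Cypher (ZASP), a PDZ and LIM protein that binds alpha-actinin and is needed for a stable Z-disc under load. Its signals were 9201, 8260 and 8292 in IGF1R mice and 8858, 9460 and 9995 in IGF1R-caPI3K mice. In IGF1R-dnPI3K mice they were 8149, 8935 and 12115. As with Csrp3, the high value was that of IGF1R-dnPI3K replicate 3, and the remaining 8 values lay between 8149 and 9995. The difference between IGF1R-dnPI3K and IGF1R mice was 0.16 ± 0.14 (SE), with an adjusted p of 0.453 (limma). It was -0.17 after quantile normalization, 0.33 after scaling to a common median and -0.0068 without that array. The IGF1R-caPI3K mice differed from IGF1R mice by 0.14 (interval -0.17 to 0.45) and from IGF1R-dnPI3K mice by -0.02 (interval -0.33 to 0.28), the latter 0.17 after quantile normalization.

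Pdlim1 encodes CLP36, another PDZ and LIM protein that binds alpha-actinin. Its brighter probe set (100554_at) gave 1819, 1733 and 1698 in IGF1R mice and 1796, 2213 and 1901 in IGF1R-caPI3K mice. In IGF1R-dnPI3K mice it gave 1844, 1335 and 1297. Replicates 2 and 3 of the IGF1R-dnPI3K group were lower than all 7 other mice, and replicate 1 lay among the others. The means were 1492 ± 306 (SD, n = 3) in IGF1R-dnPI3K and 1970 ± 217 (SD, n = 3) in IGF1R-caPI3K mice.

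The Pdlim1 difference between the PI3K groups was 0.41 ± 0.15 (SE) on this probe set, with an unadjusted p of 0.0165 and an adjusted p of 0.214 (limma). Without IGF1R-dnPI3K replicate 1 it was 0.58, with an adjusted p of 0.0196. Against IGF1R mice the IGF1R-dnPI3K mice differed by -0.25, with an adjusted p of 0.268. Without replicate 1 that difference was -0.41, with an adjusted p of 0.0321. Leaving out this 1 array thus put Pdlim1 past the threshold in both comparisons. It also raised the share of all probe sets that passed, to 6.87% between the PI3K groups and to 23.7% against IGF1R mice. It differed by 0.17 between IGF1R-caPI3K and IGF1R mice (interval -0.16 to 0.49).

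The second Pdlim1 probe set (161348_r_at), which the array's maker flagged as designed with relaxed selection rules, had overlapping groups in all 3 comparisons. Its signals were 543, 380 and 353 in IGF1R mice and 401, 570 and 430 in IGF1R-caPI3K mice. In IGF1R-dnPI3K mice they were 502, 402 and 335. The estimates were 0.18 between the PI3K groups (interval -0.29 to 0.65) and -0.04 between IGF1R-dnPI3K and IGF1R mice (interval -0.51 to 0.44). The last was 0.11 after quantile normalization and 0.13 after scaling to a common median. Its order within the IGF1R-dnPI3K group, with replicate 1 highest and replicate 3 lowest, was that of the brighter probe set. The ratios of Csrp3, Ldb3 and Pdlim1 (100554_at) to Actn2, the alpha-actinin they bind, had overlapping groups in all 3 comparisons, with exact permutation p from 0.4 to 0.9.

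**Figure D2:**
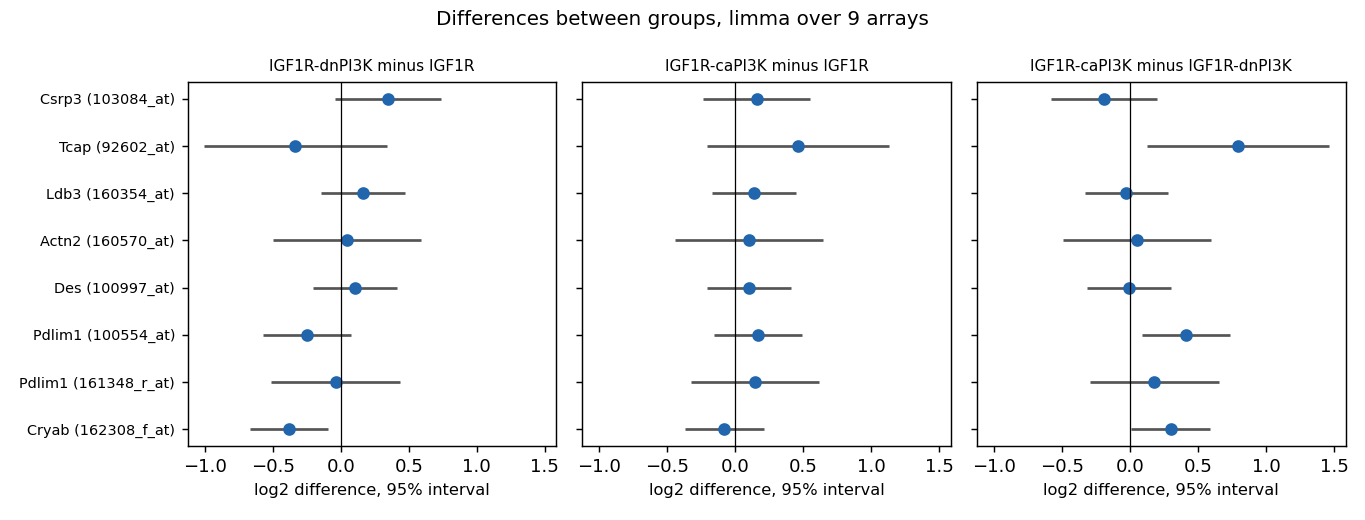
Log2 difference (points) with its 95% interval (lines) from limma over 9 arrays, for the 8 tested member probe sets in the 3 comparisons. Intervals of Cryab in the left panel, and of Tcap, Pdlim1 100554_at and Cryab in the right panel, do not reach 0 before adjustment, and in the middle panel every interval spans 0.

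The titles carry a mouse number, and the leading digits of these numbers divide the mice into series that the labels do not explain. All 3 IGF1R-caPI3K mice share a series with IGF1R mice. Of the IGF1R-dnPI3K mice, only replicate 1 does, with IGF1R replicate 3. In that pair Cryab was 4221 against 5619 and Pdlim1 (100554_at) was 1844 against 1698. With this series as blocking term, Cryab differed by -0.35 between IGF1R-dnPI3K and IGF1R mice (adjusted p 0.566, limma) and Pdlim1 by 0.16 (adjusted p 0.746, limma). Between the PI3K groups Pdlim1 (100554_at) differed by 0.0042 under this block. The other 2 IGF1R-dnPI3K mice are alone in their series, so for them series and group cannot be told apart. Without replicate 1, as in the Pdlim1 calls above, only these 2 mice are left in the IGF1R-dnPI3K group. Under this block 0.0633% of all probe sets passed between IGF1R-dnPI3K and IGF1R mice and 0.101% between the PI3K groups, and none of the calls given below on related Z-disc, intercalated disc and small heat shock genes passed.

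The spread of most members was widest in the IGF1R-dnPI3K mice, as was that of most probe sets tested. Over all of these the median coefficient of variation was 17.9% in IGF1R-dnPI3K, 11.3% in IGF1R and 10.8% in IGF1R-caPI3K mice. The IGF1R-dnPI3K group had the highest coefficient of the 3 groups in 6 of 8 tested member probe sets, against 57.3% of all probe sets tested. The coefficient ran from 12.6 to 38.0% over the members in IGF1R-dnPI3K, from 2.74 to 24.3% in IGF1R and from 2.45 to 29.2% in IGF1R-caPI3K mice. Csrp3, Tcap, Ldb3, Actn2 and Des had their highest IGF1R-dnPI3K value in replicate 3. Cryab and both Pdlim1 probe sets had their lowest IGF1R-dnPI3K value there.

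**Figure D3:**
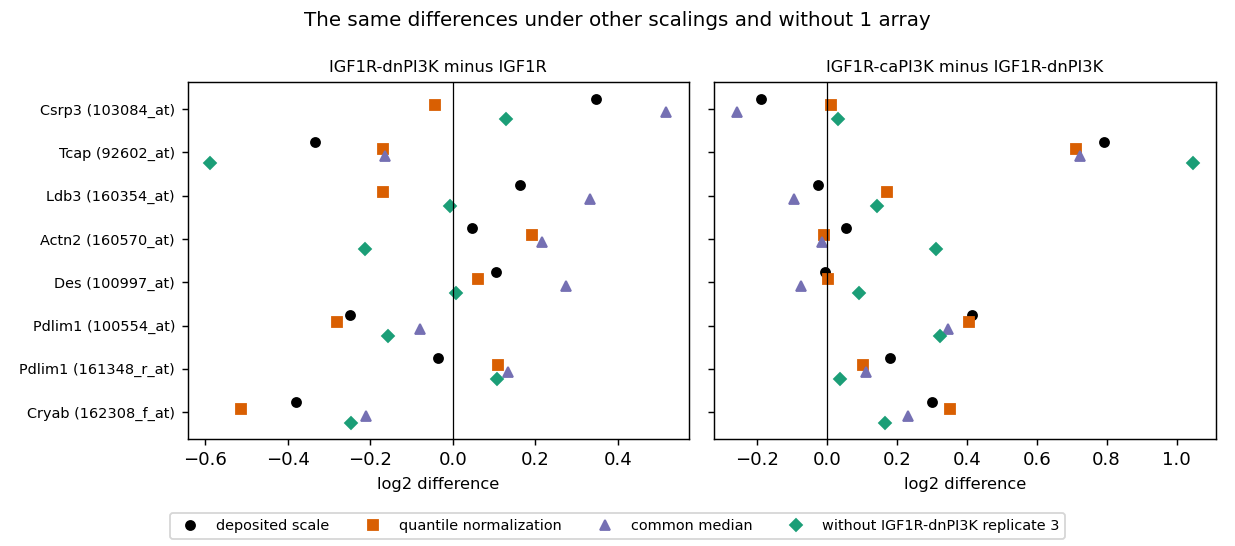
Log2 difference of each tested member probe set between IGF1R-dnPI3K and IGF1R mice (left) and between the PI3K groups (right), on the deposited scale, after 2 other scalings, and without IGF1R-dnPI3K replicate 3. Csrp3 and Ldb3 fall on both sides of 0 in both panels, while Cryab stays below 0 on the left and above 0 on the right, and Tcap and Pdlim1 100554_at stay above 0 on the right.

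Of the other genes of the Z-disc and its I-band surroundings, 18 of 38 listed had a probe set, read from the brightest one of each gene. Pdlim7 and Actn4 fell in IGF1R-dnPI3K relative to IGF1R mice, and 0 rose, so that 2 of 18 passed where 13.5% of all probe sets did. A further 4 had an unadjusted p under 0.05, making 6 of 18, against 32.2% of all. The median log2 difference of the list was -0.18, against -0.0845 over all genes. Between IGF1R-caPI3K and IGF1R mice 0 of 18 passed in limma, and 6 had an unadjusted p under 0.05, against 18.4% of all. Of the 18, 1 gene, Pdlim7, was higher in IGF1R-caPI3K than in IGF1R-dnPI3K mice, with a list median of 0.212 against 0.0451 over all genes. There 6 of 18 had an unadjusted p under 0.05, against 15.4% of all, and 1.24% of all passed.

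Pdlim7, the enigma protein, belongs to the same PDZ and LIM family as Pdlim1 and Ldb3. Its brightest probe set (102845_at) gave 662, 593 and 653 in IGF1R mice and 757, 646 and 814 in IGF1R-caPI3K mice. In IGF1R-dnPI3K mice it gave 480, 450 and 486, below all 6 other values. It fell by 0.43 on the log2 scale against IGF1R mice (adjusted p 0.0476, limma). In IGF1R-caPI3K mice it was 0.64 higher than in IGF1R-dnPI3K mice (adjusted p 0.0378, limma). Another 2 Pdlim7 probe sets passed too, at -0.65 (160837_at, adjusted p 0.0357) and -0.95 (160367_at, adjusted p 0.0281) against IGF1R mice. They did not pass between the PI3K groups, with adjusted p of 0.239 and 0.0762.

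The Pdlim7 calls were close to the threshold. That of the brightest probe set against IGF1R mice passed under 5 of 21 alternatives, and its estimate ran from -0.48 to -0.26. Between the PI3K groups it passed under 6 of 21, and its estimate ran from 0.57 to 0.74. Neither other scaling kept either call, the mouse number series as blocking term gave adjusted p of 0.439 and 0.562, and no estimate turned its sign.

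Actn4, the non-muscle alpha-actinin found in many cell types, gave 895, 1051 and 1001 in IGF1R mice. It gave 380, 608 and 516 in IGF1R-caPI3K mice and 619, 497 and 288 in IGF1R-dnPI3K mice. All 6 mice with a PI3K transgene were thus below all 3 IGF1R mice. Of all probe sets, 34.4% had no overlap between IGF1R-dnPI3K and IGF1R mice, and 32.9% none between IGF1R-caPI3K and IGF1R mice. The CreX and Gapdh ratios divided the arrays in the same way, and the part of this in such patterns was not tested. Against IGF1R mice Actn4 fell by 1.14 on the log2 scale in IGF1R-dnPI3K mice (adjusted p 0.0223, limma). The difference of -0.99 in IGF1R-caPI3K mice had an adjusted p of 0.103. The first passed under 15 of 21 alternatives, with adjusted p from 0.00583 to 0.618; it did not pass when any 1 of the 3 IGF1R arrays was left out, and was -0.49 with the mouse number series as blocking term (adjusted p 0.618). In contrast to Actn4, the muscle paralog Actn2 had overlapping groups.

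Fhl1, a LIM-only protein that binds titin in the I-band, was named after its values were seen. Its brightest probe set (97498_at) missed the threshold between the PI3K groups, at 0.52 with an adjusted p of 0.0502 (limma). Against IGF1R mice it was -0.12 in IGF1R-dnPI3K mice, with an adjusted p of 0.498, and 0.05 after scaling to a common median. Its second probe set (97500_g_at) gave 2612, 2529 and 2547 in IGF1R mice and 3358, 3178 and 2764 in IGF1R-caPI3K mice. In IGF1R-dnPI3K mice it gave 1894, 1692 and 1908, and the 3 groups did not overlap with each other. It was 0.76 higher in IGF1R-caPI3K than in IGF1R-dnPI3K mice (adjusted p 0.0133, limma), and fell by 0.49 in IGF1R-dnPI3K against IGF1R mice (adjusted p 0.0203, limma). After scaling to a common median the latter was -0.32 with an adjusted p of 0.0937. With the mouse number series as blocking term the adjusted p was 0.294 between the PI3K groups and 0.358 against IGF1R mice.

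Actn1, a non-muscle alpha-actinin like Actn4, had probe sets that disagreed, and it too was named after its values were seen. Its brightest (104578_f_at) gave 664, 620 and 688 in IGF1R and 905, 584 and 523 in IGF1R-dnPI3K mice, a difference of -0.01 with an adjusted p of 0.971 (limma). The dimmer 104579_r_at gave 307, 338 and 445 in IGF1R and 179, 151 and 61.6 in IGF1R-dnPI3K mice. It fell by 1.60 on the log2 scale (adjusted p 0.0212, limma). The dimmest, 92280_at, fell by 1.80 (adjusted p 0.0353, limma), with IGF1R-dnPI3K signals of 18.9, 14.7 and 81.7, of which 2 lay under the floor. These calls held under 15 of 21 and 9 of 16 alternatives, and neither passed with the mouse number series as blocking term (adjusted p 0.417 and 0.312). Suffixes f and r of 104578_f_at and 104579_r_at carry the flags described above for Cryab and Pdlim1.

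Of the intermediate filament and lamina genes, 7 of 11 listed were tested and 0 passed in limma in any of the 3 comparisons. At an unadjusted p under 0.05 the counts were 1, 0 and 2 of 7, against 32.2, 18.4 and 15.4% of all probe sets. The lowest p-values belonged to Nes and Lmnb2. Nestin, an intermediate filament protein of precursor and vascular cells, gave 1471, 1823 and 1577 in IGF1R-caPI3K and 1551, 555 and 871 in IGF1R-dnPI3K mice. The difference of 0.83 had an adjusted p of 0.21 (limma). It was 1.22 without IGF1R-dnPI3K replicate 1 (adjusted p 0.00653), 0.48 without replicate 2 and 0.08 with the mouse number series as blocking term. Lmnb2, which encodes lamin B2 of the nuclear lamina, differed by -1.07 between IGF1R-dnPI3K and IGF1R mice, with an adjusted p of 0.0779 (limma). It was -0.53 with that block (adjusted p 0.767), and ran from -1.50 to -0.41 over the alternatives.

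At the intercalated disc, where desmin filaments attach to desmosomes, 11 of 12 listed genes were tested on their brightest probe set. Between IGF1R-dnPI3K and IGF1R mice, and between IGF1R-caPI3K and IGF1R mice, 0 of 11 passed in limma, with 3 at an unadjusted p under 0.05 in each (32.2 and 18.4% of all probe sets). Between the PI3K groups 1 of 11, Dsg2, passed (1.24% of all), and 2 had an unadjusted p under 0.05 (15.4% of all). Dsg2, the desmosomal cadherin desmoglein 2, gave 344, 419 and 391 in IGF1R-caPI3K, 579, 544 and 413 in IGF1R and 806, 652 and 643 in IGF1R-dnPI3K mice. It fell by 0.86 in IGF1R-caPI3K relative to IGF1R-dnPI3K mice (adjusted p 0.0346, limma), a call that held under 10 of 21 alternatives. With the mouse number series as blocking term it was -1.30 (adjusted p 0.0584). Its other tested probe set (98319_at) was at 70.7 ± 14.2 (SD, n = 3) in IGF1R-caPI3K and 141 ± 26.8 (SD, n = 3) in IGF1R-dnPI3K mice, with an adjusted p of 0.135 (limma).

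Gja1, the gap junction protein connexin 43 of the same disc, was named after its values were seen, because a probe set other than its brightest passed. The brightest (100064_f_at) differed by -0.48 between IGF1R-dnPI3K and IGF1R mice, with an adjusted p of 0.0503 (limma). The other (100065_r_at) gave 2590, 2252 and 2353 in IGF1R, 803, 1296 and 1157 in IGF1R-caPI3K and 1274, 966 and 261 in IGF1R-dnPI3K mice. All 6 mice with a PI3K transgene lay below all 3 IGF1R mice, the same division as in the CreX and Gapdh ratios. This probe set fell by 1.81 on the log2 scale in IGF1R-dnPI3K mice (adjusted p 0.0301, limma). The call held under 14 of 21 alternatives and not with the mouse number series as blocking term (adjusted p 0.706). Suffixes f and r of the Gja1 probe sets carry the flags described above for Cryab and Pdlim1.

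Among the small heat shock proteins other than Cryab, 2 of 7 listed were tested. Of these 1 passed, between IGF1R-dnPI3K and IGF1R mice, where 13.5% of all probe sets did. At an unadjusted p under 0.05 the counts were 1, 1 and 0 of 2, against 32.2, 18.4 and 15.4% of all. Hspb2, whose protein is found with the myotonic dystrophy kinase in muscle, lies next to Cryab in the genome, within the span that the RefSeq gene table gives for Cryab. Its brightest probe set (103215_g_at) gave 4583, 5521 and 4067 in IGF1R mice and 7247, 6774 and 6941 in IGF1R-caPI3K mice. In IGF1R-dnPI3K mice it gave 6396, 6761 and 10016. On this probe set all 6 mice with a PI3K transgene were above all 3 IGF1R mice, the same division as in the CreX and Gapdh ratios.

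Hspb2 rose by 0.69 on the log2 scale in IGF1R-dnPI3K against IGF1R mice, with an adjusted p of 0.0277 (limma). The difference of 0.58 in IGF1R-caPI3K mice had an adjusted p of 0.123. The call passed under 13 of 21 alternatives, with adjusted p from 0.0101 to 0.447; it did not pass when any 1 of the 3 IGF1R arrays was left out, and was 0.36 with quantile normalization without IGF1R-dnPI3K replicate 3. With the mouse number series as blocking term the adjusted p was 0.447. A second probe set (103214_at) gave 1642, 1733 and 1465 in IGF1R and 1556, 2476 and 2905 in IGF1R-dnPI3K mice, so these groups overlapped. In IGF1R-caPI3K mice it gave 2209, 1990 and 2456, above all IGF1R mice. Between IGF1R-dnPI3K and IGF1R mice it differed by 0.48 with an adjusted p of 0.129 (limma). That estimate ran from 0.02 to 0.74 over the alternatives and passed under 2 of 21.

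Hspb2 and Cryab, which are neighbours, lay on opposite sides of 0 between IGF1R-dnPI3K and IGF1R mice. This pair was chosen after its values were seen. The log2 ratio of Hspb2 to Cryab signal was -0.25, 0.05 and -0.47 in IGF1R mice. It was 0.58, 0.41 and 0.32 in IGF1R-caPI3K and 0.60, 0.43 and 1.53 in IGF1R-dnPI3K mice. Both PI3K groups thus lay above all IGF1R mice, the same division as in the CreX and Gapdh ratios. The differences of 1.07 and 0.66 from IGF1R mice each had an exact permutation p of 0.1, the smallest possible, and 0.45 after adjustment over the 18 tests. The estimates ran from 0.70 to 1.28 and from 0.53 to 0.79 over the alternatives, with no change of sign.

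**Figure D4:**
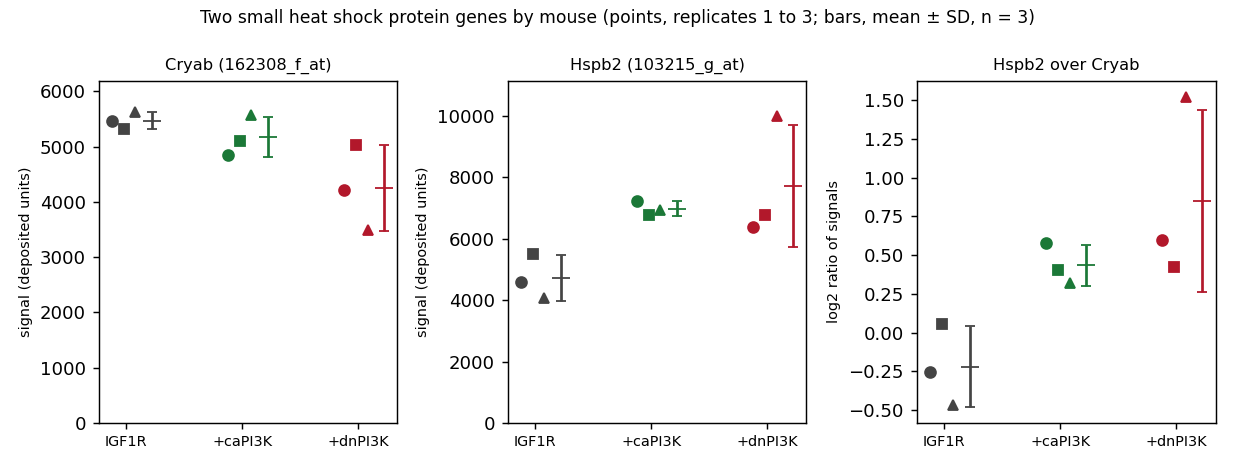
Deposited signal of Cryab and Hspb2 (left and middle, linear scale from 0) and the log2 ratio of Hspb2 to Cryab (right) in the 9 mice, with points for replicates 1 to 3 (circle, square, triangle) and bars for mean ± SD (n = 3). The ratio is at most 0.05 in the 3 IGF1R mice and at least 0.32 in the 6 mice with a PI3K transgene.

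**Figure D5:**
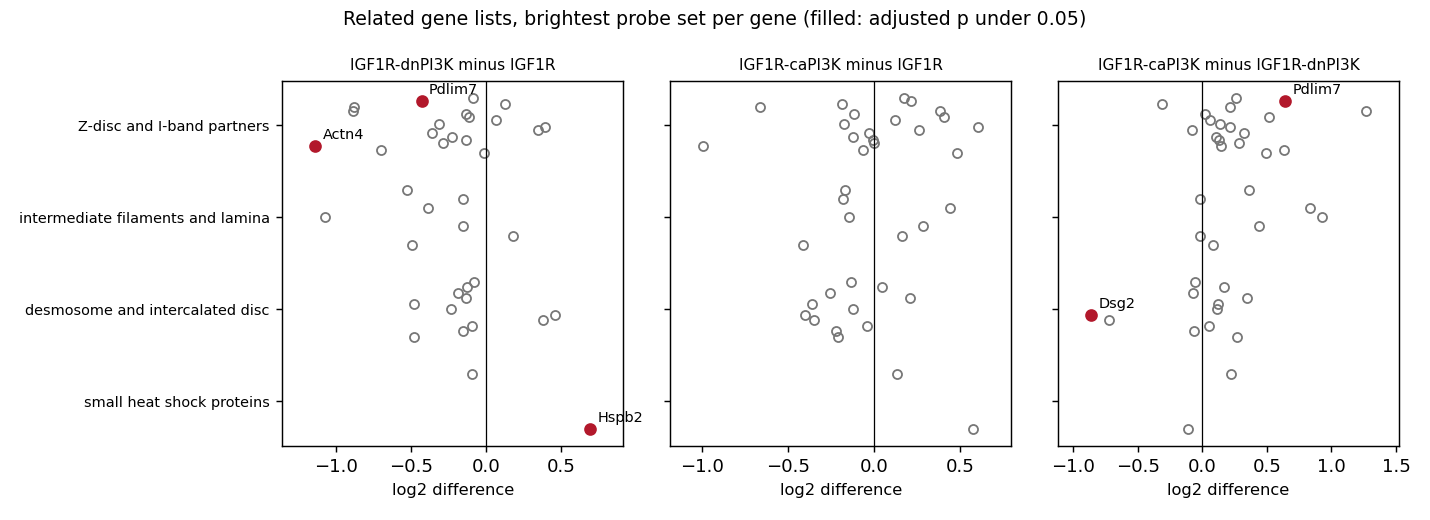
Log2 difference of each tested gene of 4 related lists, read from its brightest probe set, in the 3 comparisons. Filled points passed at an adjusted p under 0.05: Pdlim7, Actn4 and Hspb2 on the left, none in the middle, and Pdlim7 and Dsg2 on the right.

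Markers of other cell types moved with the same groups. The summed signal of 7 fibroblast markers was 21558 to 25302 in IGF1R-dnPI3K, 29427 to 32118 in IGF1R and 31719 to 35447 in IGF1R-caPI3K mice. That of 5 macrophage markers was 1338 to 2100, 2678 to 2997 and 2602 to 2864 in the same order. None of these markers was at or below the highest Y-linked signal. Of the fibroblast markers Col1a1, Col3a1, Lum and Postn fell in IGF1R-dnPI3K against IGF1R mice, with log2 differences of -1.33, -1.90, -1.16 and -1.80 (adjusted p 0.0358, 0.0338, 0.0143 and 0.0192, limma). The brightest, Dcn, did not follow, at 0.09, and neither did Col1a2, at 0.14. The sum of 6 endothelial markers was 4855 to 5736 in IGF1R-dnPI3K, 5956 to 7318 in IGF1R and 4650 to 5084 in IGF1R-caPI3K mice. Of these, Kdr and Pecam1 fell in IGF1R-dnPI3K against IGF1R mice, at -1.165 and -0.73 (adjusted p 0.0185 and 0.0423, limma). Vwf rose, at 0.63 (adjusted p 0.0281, limma), and Cdh5, Tek and Tie1 did not pass, at -0.22, -0.25 and 0.09. The sum of 7 ventricular cardiomyocyte markers was 161309 to 205406 in IGF1R-dnPI3K, 133921 to 144704 in IGF1R and 148899 to 156895 in IGF1R-caPI3K mice. The sum of 10 fast skeletal muscle markers was 5580 to 7270 in IGF1R-dnPI3K, 13596 to 14268 in IGF1R and 19112 to 20498 in IGF1R-caPI3K mice. Myh1, Tnni2 and Tnnt3 were at or below the highest Y-linked signal. Myl1 and Casq1 carried this sum, with log2 differences of -1.79 and -1.31 between IGF1R-dnPI3K and IGF1R mice (adjusted p 0.00347 and 0.00827, limma). Mylpf, Myh4 and Pvalb did not follow, at -0.03, 0.15 and 0.17. Actn4, Pdlim7, Pdlim1, Nes and Lmnb2 are also expressed outside cardiomyocytes, Tcap is also abundant in skeletal muscle, and the part of these markers in the results was not tested.

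The genes whose log2 signal over the 9 arrays was most like that of Cryab (162308_f_at) were Gpx4 (Pearson r 0.968), Fcgr2b (0.961), Ankrd40 (0.952), Anxa7 (0.951) and Akap2 (0.951). The 9 arrays share the 3 groups and the low IGF1R-dnPI3K replicate 3, on which each of these 5 genes also had its lowest signal. Gpx4, a glutathione peroxidase that reduces lipid peroxides, gave 2904, 2746 and 3008 in IGF1R and 2451, 2841 and 2056 in IGF1R-dnPI3K mice. These values describe likeness in these arrays alone.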

How the data were processed

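The authors deposited a value table of linear-scale intensity, with 12488 probe sets and 9 arrays. How the intensity was computed, any detection calls and the genome build: not given in the sources used here. Groups came from the titles (3 mice each) and replicate numbers follow the order of deposit and pair no mice. Symbols came from the platform annotation: 10833 probe sets had 1 symbol, 396 several and 1193 none.

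The 66 controls were left out. Signals under 32.4 (percentile 20 of all positive signals) were set to that floor before the log2 step. A probe set was tested, as 7898 were, if it exceeded percentile 40 of an array in 3 or more arrays. All 9 arrays entered 1 linear model in limma 3.58.1 (R 4.3.3) with variances that follow the mean signal. A check on simulated data had equal spread in the 3 groups, no outlying array, no filter and no raised floor. It therefore could not show how the model handles the wider spread of the IGF1R-dnPI3K mice. Means ± SD are of deposited values. p-values measure the spread between mice within groups, and 3 arrays a group limit the precision. Ratios of 6 pairs were compared by two-sided exact permutation tests.

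The members, lists and rules were chosen with earlier results of these data known. Named were all members, the genes of each list that passed on their brightest probe set (at most 6, otherwise the 2 with the lowest p), and the 5 genes most like the member with the lowest p. Alternatives changed scaling, low values, filter, variance model, array weights, samples in the fit and the mouse number series as blocking term, and left out each array in turn. Quantile normalization without IGF1R-dnPI3K replicate 3, the pair of Hspb2 and Cryab, and the alternatives for pairs and listed genes were added after seeing the data.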

Additional observations from a re-analysis of the deposited data

How the results depend on the processing

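No paired analysis was possible because replicate numbers follow the order of deposit and each mouse has its own number. Of the members' 504 alternative values, 453 kept their direction and side of the threshold, 46 turned their sign and 5 newly passed. In IGF1R-dnPI3K against IGF1R mice, 1 member probe set passed instead of 0 with quantile normalization, and 1 with quantile normalization without IGF1R-dnPI3K replicate 3 (Cryab in both). With single arrays left out, 0 to 1 passed there (Cryab without IGF1R-dnPI3K replicate 2, Pdlim1 100554_at without replicate 1) and 0 to 1 between the PI3K groups (Pdlim1 100554_at without IGF1R-dnPI3K replicate 1). Of all probe sets, 23.7 and 6.87% passed in these comparisons when the last of these arrays was left out. Between IGF1R-caPI3K and IGF1R mice 0 members passed under all 21 alternatives. None of the turned values passed, and the causes were not tested.

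In IGF1R-dnPI3K against IGF1R mice, these log2 differences turned. Quantile normalization gave Csrp3 -0.043, Ldb3 -0.169 and Pdlim1 161348_r_at 0.11. Quantile normalization without IGF1R-dnPI3K replicate 3 gave Csrp3 -0.151, Ldb3 -0.229, Actn2 -0.11, Des -0.028 and Pdlim1 161348_r_at 0.20. A common median gave Pdlim1 161348_r_at 0.134, and array weights gave Actn2 -0.257. The mouse number series as blocking term gave Ldb3 -0.0043, Des -0.0075, Pdlim1 100554_at 0.162 and Pdlim1 161348_r_at 0.489. With single arrays left out, Tcap ran from -0.587 to 0.003, Ldb3 from -0.0068 to 0.279, Actn2 from -0.212 to 0.315 and Pdlim1 161348_r_at from -0.185 to 0.155. Of the related genes, Fhl1 97498_at was 0.0534 with a common median. Actn1 104578_f_at was 0.087 with quantile normalization, 0.195 with that and without IGF1R-dnPI3K replicate 3, 0.157 with a common median and 0.359 with the block, and ran from -0.25 to 0.146 with single arrays left out.

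In IGF1R-caPI3K against IGF1R mice, Csrp3 was -0.031 with quantile normalization, with or without IGF1R-dnPI3K replicate 3, and Cryab was 0.02 with a common median. Pdlim1 161348_r_at ran from -0.0079 to 0.335 with single arrays left out.

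Between the PI3K groups, quantile normalization gave Csrp3 0.013, Ldb3 0.173, Actn2 -0.0101 and Des 0.0016. Quantile normalization without IGF1R-dnPI3K replicate 3 gave Csrp3 0.121, Ldb3 0.234 and Des 0.089. A common median gave Actn2 -0.0143, and array weights gave Ldb3 0.0517 and Des 0.0225. The mouse number series as blocking term gave Ldb3 0.141, Actn2 -0.0259, Des 0.106 and Pdlim1 161348_r_at -0.345. With single arrays left out, Csrp3 ran from -0.337 to 0.030, Ldb3 from -0.142 to 0.144, Actn2 from -0.216 to 0.311 and Des from -0.086 to 0.090.

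Over all probe sets, 1066 passed between IGF1R-dnPI3K and IGF1R mice, and 5 to 1856 under the alternatives. Between IGF1R-caPI3K and IGF1R mice 17 passed, and 0 to 777 under the alternatives. Between the PI3K groups 98 passed, and 8 to 537 under the alternatives. With 3 mice a group the members' intervals are wide, as the 1.09 to 2.75-fold of Tcap between the PI3K groups shows.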
